A study of Homo sapiens with 6 samples.

Results

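The BCL2 family decides at the outer mitochondrial membrane whether a cell releases cytochrome c and enters apoptosis. Its pro-survival proteins hold back the pore-forming effectors, and its BH3-only proteins act as stress sensors that bind the pro-survival proteins or activate the effectors. Lymphoid and leukemic cells lean on individual pro-survival members to different degrees, which is why drugs that mimic BH3 proteins are directed at single members of the family. The 10 genes described here were the rows of the gene table named BCL2, BCL2L1, MCL1 and BCL2A1 (pro-survival), BAX and BAK1 (effectors) and BCL2L11, PMAIP1, BBC3 and BID (BH3-only), out of 35410 listed genes. They were picked by name, with earlier results of these data known. All 10 had counts, and 9 passed the filter on low counts, with BCL2A1 below it.

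Both lines derive from SEM, an established human proB leukemia line that carries the KMT2A::AFF1 fusion. SEM::mock carried an empty vector and SEM::EGR3 a vector with a doxycycline-inducible EGR3 transgene, which encodes an immediate early zinc finger transcription factor. All 6 libraries, 3 biological replicates per line, came from cells given 1 µg/mL doxycycline 48 h before RNA extraction, so the agent is common to both lines. Polyadenylated RNA was measured by MACE-Seq, which reads cDNA near the 3′ end of transcripts, so levels of different genes can be set side by side without a length correction. Where another gene covers that end, reads may not be assigned, and such levels are less certain. Whether a line was 1 clone or a pool is not given in the sources used here, and the line and the induced transgene cannot be told apart in this design.

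EGR3 stood at 1.42 ± 0.249 CPM (counts per 1000000 counts of a library, scaled by the trimmed mean of M-values, TMM; mean ± SD, n = 3) in SEM::mock and at 637 ± 27.1 CPM in SEM::EGR3. Library totals ran from 5286115 to 6181388 counts in SEM::mock and from 7293092 to 15106018 counts in SEM::EGR3. Most B lineage markers of the labelled cell type went against the label in all 3 SEM::mock libraries, and erythroid transcripts were abundant in all 6 libraries. Of 17 B lineage markers, 12 had 3 counts or fewer in each SEM::mock library against 3 in SEM::EGR3, and the summed level was 267.9 to 288.9 CPM against 869.3 to 910.2 CPM. EBF1, IGHM, BLK and MS4A1 were at 0 in every SEM::mock library and PAX5 had 1, 1 and 2 counts. MS4A1 was low in SEM::EGR3 as well, at 6, 2 and 9 counts. CD24 went the other way (143.8 and 23.5 CPM, SEM::mock first), and TCF3 was present in both lines (130.5 and 173.9 CPM). Of 14 target genes of KMT2A fusions, 3 had 3 counts or fewer in each SEM::mock library and 0 in SEM::EGR3. HOXA7 was at 0 counts in SEM::mock, and the summed levels were 386.1 to 416 CPM against 1657 to 1778 CPM. LMO2 was the target gene that went the other way (110.2 and 32.0 CPM, SEM::mock first). The 19 erythroid markers summed to 5828 to 6167 CPM in SEM::mock and to 6645 to 6848 CPM in SEM::EGR3. They are not markers of the labelled proB cell type, so the departure from the label was not confined to SEM::mock. Among them, SEM::mock first, were HBZ (864 and 2117 CPM), HBA1 (515 and 1497 CPM) and HBG2 (2343 and 949 CPM). The summed levels of the other marker lists, SEM::mock first, were 14.6 to 15.2 and 17.9 to 19.1 CPM for megakaryocyte, 390.1 to 400.2 and 241.9 to 245.2 CPM for myeloid, 87.1 to 99.6 and 132.7 to 144.9 CPM for T cell, 872.3 to 914.4 and 430.5 to 462.6 CPM for epithelial and 7.07 to 10.6 and 154 to 158.7 CPM for fibroblast genes. Some of these sums join genes that moved in opposite directions. Among tested markers, 11 were higher and 1 lower for B lineage and 13 and 1 for KMT2A fusion target genes. The calls were 4 and 12 for erythroid, 2 and 1 for megakaryocyte, 2 and 4 for myeloid and 3 and 3 for T cell genes. For epithelial genes they were 0 and 4, and for fibroblast genes 3 and 0. Of all tested genes, 36.5% were higher and 32.0% lower. Among the T cell genes, TRAC (1.21 and 74.7 CPM), LCK (0.131 and 52.2 CPM) and CD2 rose. CD3D (58.1 and 6.26 CPM), TRBC1 (31.9 and 1.70 CPM) and CD3E fell. The missing B lineage markers touch each SEM::mock library and the erythroid transcripts all 6 libraries, so no comparison without these departures can be made. Their part in the values of the BCL2 family was not tested.

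EGR3 binds GC-rich DNA, and the promoter windows of the family (250 bases before to 50 after a transcript start, RefSeq, GRCh38.p14) were searched on both strands for the EGR core GCGNGGGCG. Windows were held for 9 of the 10 members, and MCL1 had none. The core was present in BCL2L11 and BAX, in 2 of the 14 windows of the 9 members, against 9.43% of all 35116 windows. These are the stretches that hold it, shown because they are the family's matches to the motif of the induced factor, 5′ to 3′ on the gene strand with the match in capitals.

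BCL2L11, chr2:111120664-111120913, plus strand: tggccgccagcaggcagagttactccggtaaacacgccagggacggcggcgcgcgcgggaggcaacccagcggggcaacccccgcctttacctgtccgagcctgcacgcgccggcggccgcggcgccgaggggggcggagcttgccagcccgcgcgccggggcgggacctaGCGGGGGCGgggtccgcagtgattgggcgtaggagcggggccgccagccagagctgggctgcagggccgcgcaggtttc

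BAX, chr19:48954875-48954904, plus strand: gcgctgcggcCGCCCGCGCggacccggcga

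The match in BCL2L11 begins 79 bases before the transcript start and reads along the gene strand. The match in BAX lies just downstream of the start and reads on the opposite strand, so its capitals are the reverse complement of the core. Both overlap the shorter SP/KLF box GGGCGG, which was present in 9 of the 14 member windows (of BAK1, BAX, BCL2L1, BCL2L11, PMAIP1 and, with several windows, BID) and in 45.0% of all windows. The palindromic STAT5 motif TTCNNNGAA was present in 1 member window, that of BCL2A1, and in 7.66% of all windows. The windows of BCL2 and BBC3 held none of these 3 motifs. A match is a description of the letters and was not tied to binding here.

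Of the 9 tested members, 5 were higher in SEM::EGR3 (BCL2, BCL2L1, BAK1, BCL2L11 and BBC3) and 4 were lower (MCL1, BAX, PMAIP1 and BID), at an adjusted p under 0.05 in edgeR. The background was high, since 68.5% of the 15465 tested genes were called, 36.5% as higher and 32.0% as lower. A call on its own therefore says little about a member, and the sizes carry the description. When a change of at least 1 on the log2 scale was also required, BCL2 and BBC3 remained among the higher members and BID among the lower, against a background of 25.2% of tested genes, 16.7% higher and 8.50% lower. The libraries of the lines did not overlap for 8 of 9 tested members, BAX being the exception, which compares with 70.1% of tested genes (37.5% higher, 32.6% lower). The median log2 fold change was 0.26 over the members and 0.03 over all tested genes. In bulk RNA a smaller share of cells with a transcript and less transcript per cell cannot be told apart. In the log-scale plot of the levels, each role contains genes that moved in opposite directions.

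**Figure D1:**
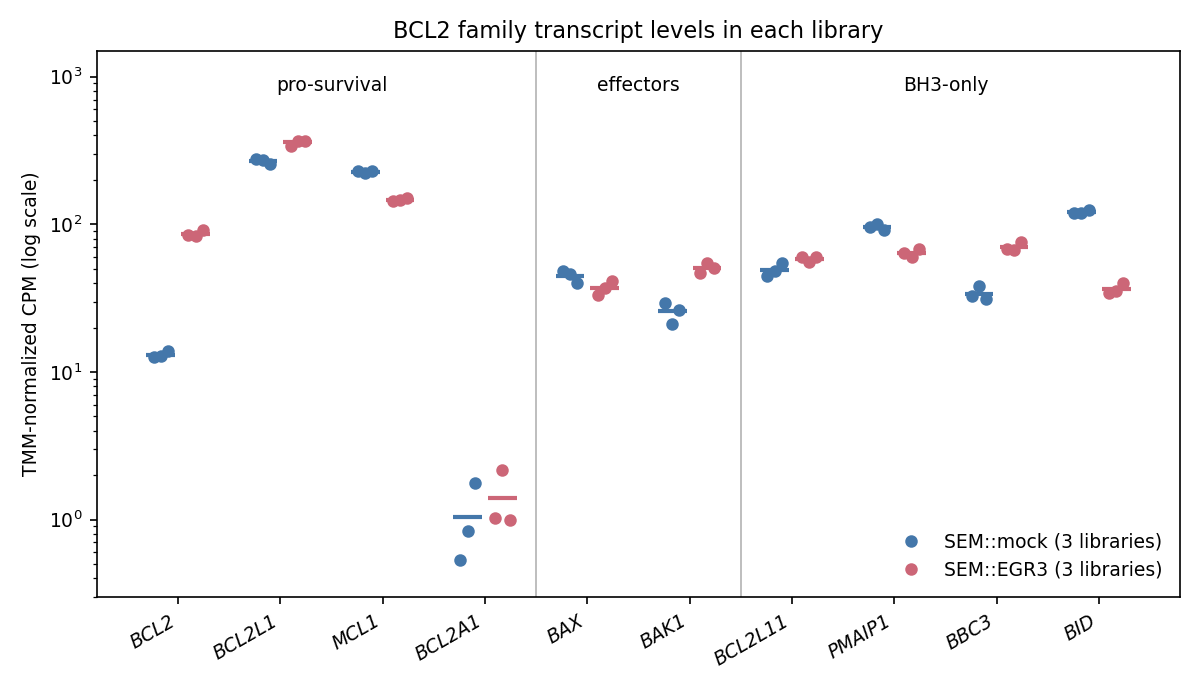
TMM-normalized CPM (log axis) of the 10 members in each library, grouped by role; points are the 3 libraries of SEM::mock (blue) and of SEM::EGR3 (red) and bars their means. BCL2 moved from a mean of 13.1 to 86.6 CPM and BID from 121.2 to 36.5 CPM, while the libraries of BAX and BCL2A1 overlapped between the lines.

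BCL2, the founding pro-survival gene and the target of venetoclax (ENSG00000171791, GRCh38 chromosome 18, 63123346 to 63320128, minus strand), showed the largest change of the 9 tested members. It stood at 12.5, 12.9 and 13.9 CPM in SEM::mock replicates 1 to 3 (71, 77 and 71 counts) and at 84.3, 83.4 and 92.1 CPM in SEM::EGR3 (1307, 619 and 833 counts). Every SEM::EGR3 library was several-fold above every SEM::mock library, and the spread within each line was small. The means of 13.1 ± 0.716 and 86.6 ± 4.77 CPM (SD, n = 3) differ 6.60-fold, and the log2 fold change was 2.72 (SE 0.0896, edgeR adjusted p = 1.198e-18). Of all tested genes, 7.21% changed by more in either direction. In level, BCL2 lay above 42.0% of tested genes in SEM::mock and above 85.2% in SEM::EGR3.

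BCL2L1, which encodes BCL-XL (ENSG00000171552, chromosome 20, 31664452 to 31723989, minus strand), was the most abundant family member in both lines. Its levels were 275.1, 274.7 and 256.5 CPM in SEM::mock and 340.3, 367.9 and 367.8 CPM in SEM::EGR3. The SEM::EGR3 libraries were all higher, by a modest margin. The log2 fold change was 0.41 (SE 0.0543, adjusted p = 2.92e-07), from 268.8 ± 10.6 to 358.7 ± 15.9 CPM, and 54.3% of tested genes changed by more. In absolute terms this was a rise of 89.9 CPM, above the 73.5 CPM gained by BCL2 at its larger fold.

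MCL1, a short-lived pro-survival protein that B cell precursors need (ENSG00000143384, chromosome 1, 150574551 to 150579738, minus strand), went the other way. It stood at 229.7, 221.9 and 231.2 CPM in SEM::mock and at 143.8, 145.2 and 151.4 CPM in SEM::EGR3. The libraries of each line lay close together and all SEM::EGR3 values were lower. The means were 227.6 ± 4.98 and 146.8 ± 4.04 CPM, 1.55-fold higher in SEM::mock, with a log2 fold change of -0.63 (SE 0.0538, adjusted p = 1.575e-10). MCL1 remained the second most abundant member in SEM::EGR3. Its 3′ end is covered by ADAMTSL4-AS1 on the same strand, which had 0 counts over the SEM::mock libraries and 2 over the SEM::EGR3 libraries. Reads shared by both genes may have been left uncounted, so the level, rank and share of MCL1 may be understated, which was not tested.

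BCL2A1, an inducible pro-survival gene of activated lymphoid and myeloid cells (ENSG00000140379, chromosome 15, 79960889 to 79971446, minus strand), was at the edge of detection. Its counts were 3, 5 and 9 in SEM::mock and 16, 16 and 9 in SEM::EGR3, which are 0.530, 0.837 and 1.77 CPM against 1.03, 2.16 and 0.995 CPM. The lines overlapped. Without the filter on low counts the log2 fold change was 0.34 (SE 0.429, edgeR adjusted p = 0.602), and a difference was not detectable at this depth.

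The pore-forming effectors moved apart. BAK1, which sits in the outer mitochondrial membrane (ENSG00000030110, chromosome 6, 33572547 to 33580293, minus strand), had 29.5, 21.3 and 26.3 CPM in SEM::mock and 46.6, 55.1 and 50.5 CPM in SEM::EGR3. All SEM::EGR3 libraries were higher. The means rose 1.98-fold, from 25.7 ± 4.15 to 50.7 ± 4.24 CPM, with a log2 fold change of 0.97 (SE 0.0991, adjusted p = 4.331e-09). The 3′ end of BAK1 is covered by GGNBP1 on the opposite strand, which had 0 counts over the SEM::mock libraries and 2 over the SEM::EGR3 libraries. A loss of shared reads was not tested.

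BAX, the effector that moves from the cytosol to mitochondria on activation (ENSG00000087088, chromosome 19, 48954815 to 48961798, plus strand), had 48.4, 46.4 and 40.2 CPM in SEM::mock and 33.0, 37.0 and 41.4 CPM in SEM::EGR3. The highest SEM::EGR3 library lay above the lowest SEM::mock library. The means were 45.0 ± 4.28 and 37.2 ± 4.24 CPM, and the log2 fold change of -0.30 (SE 0.0915) was called at an adjusted p of 0.005991. That call rests on SEM::EGR3 replicate 1, without which the log2 fold change was -0.19 and the adjusted p 0.0824. The ratio of BAX to BAK1 was 1.64, 2.18 and 1.53 in SEM::mock and 0.707, 0.672 and 0.821 in SEM::EGR3, so BAX was the more abundant effector transcript in every SEM::mock library and BAK1 in every SEM::EGR3 library.

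The BH3-only genes also divided. BID, whose protein is cut by caspase-8 and carries the death receptor signal to mitochondria (ENSG00000015475, chromosome 22, 17734138 to 17774770, minus strand), had 119.6, 118.6 and 125.5 CPM in SEM::mock and 34.1, 35.3 and 40.0 CPM in SEM::EGR3. The lines were far apart beside their spread. The mean was 3.32-fold higher in SEM::mock (121.2 ± 3.73 against 36.5 ± 3.12 CPM), with a log2 fold change of -1.74 (SE 0.0697, adjusted p = 6.277e-17), and 12.8% of tested genes changed by more. BID lay above 89.4% of tested genes in SEM::mock and above 65.1% in SEM::EGR3.

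BBC3, which encodes PUMA, a BH3-only protein that binds all pro-survival members (ENSG00000105327, chromosome 19, 47220822 to 47232766, minus strand), had 32.5, 38.0 and 31.0 CPM in SEM::mock and 67.7, 66.5 and 76.5 CPM in SEM::EGR3. All SEM::EGR3 libraries were higher. The means rose 2.08-fold, from 33.8 ± 3.70 to 70.3 ± 5.43 CPM (log2 fold change 1.05, SE 0.0838, adjusted p = 5.129e-11).

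PMAIP1, which encodes NOXA, a binding partner of MCL1 (ENSG00000141682, chromosome 18, 59899948 to 59904306, plus strand), fell. It had 96.7, 99.8 and 91.2 CPM in SEM::mock and 64.1, 59.9 and 68.1 CPM in SEM::EGR3. The lines did not overlap, and the log2 fold change was -0.58 (SE 0.066, adjusted p = 2.799e-08). PMAIP1 and MCL1 fell by similar proportions. Their ratio was 0.422 ± 0.0277 in SEM::mock and 0.436 ± 0.0202 in SEM::EGR3, with overlapping libraries.

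BCL2L11, which encodes BIM, the BH3-only protein that acts in the deletion of lymphocytes (ENSG00000153094, chromosome 2, 111119378 to 111168447, plus strand), had 44.7, 48.4 and 54.3 CPM in SEM::mock and 59.8, 55.9 and 59.9 CPM in SEM::EGR3. The SEM::EGR3 libraries were higher, but the gap between the nearest libraries was small. The log2 fold change was 0.26 (SE 0.0758, adjusted p = 0.003924), and 68.2% of tested genes changed by more. Without SEM::mock replicate 1 it was 0.18 with an adjusted p of 0.0575, so the call rests on that library. The 3′ end of BCL2L11 lies within MIR4435-2HG on the opposite strand, which had 1297 counts over the SEM::mock libraries and 911 over the SEM::EGR3 libraries. These totals are not scaled for depth, and the SEM::EGR3 libraries were deeper, so its scaled level fell by more than they show. The strand setting of the counting is not given in the sources used here, so reads of these genes may not be fully separated. The plot of changes places the 9 tested members side by side.

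**Figure D2:**
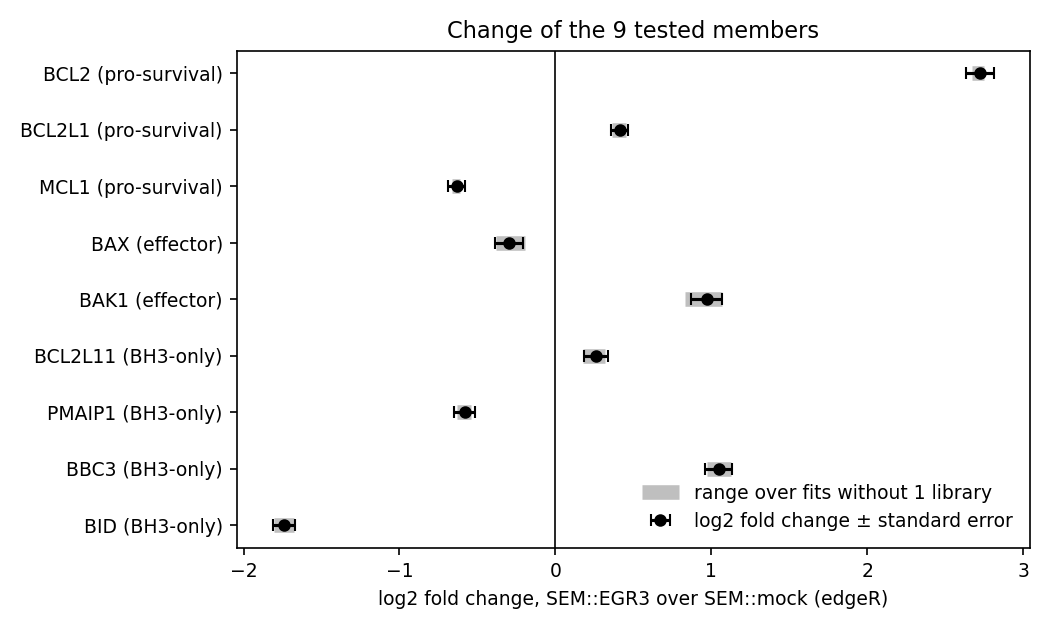
Log2 fold change of SEM::EGR3 over SEM::mock (edgeR) for the 9 tested members; points and whiskers are estimates and standard errors, and grey bars the range over the fits that leave out 1 library. BCL2 (2.72) and BID (-1.74) lie farthest from 0, and BAX (-0.30) and BCL2L11 (0.26) nearest.

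The order of the transcripts changed with these shifts. In SEM::mock it ran from BCL2L1 through MCL1, BID, PMAIP1, BCL2L11, BAX, BBC3, BAK1 and BCL2 to BCL2A1, and the libraries of BCL2L11 and BAX overlapped. In SEM::EGR3 BCL2L1 and MCL1 still led, followed by BCL2, BBC3, PMAIP1, BCL2L11, BAK1, BAX, BID and BCL2A1, and the libraries of BBC3 and PMAIP1 and those of BAX and BID overlapped. BCL2 went from the ninth place to the third and BID from the third to the ninth.

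The pro- and anti-survival balance was described by summed levels in each library, without a test. The 4 pro-survival genes summed to 517.9, 510.4 and 503.4 CPM in SEM::mock and to 569.5, 598.6 and 612.3 CPM in SEM::EGR3. The effectors summed to 70.7 ± 6.30 CPM in SEM::mock and to 87.9 ± 7.19 CPM in SEM::EGR3. The BH3-only genes summed to 293.5, 304.8 and 302.0 CPM against 225.8, 217.7 and 244.5 CPM. The pro-survival and effector sums were thus higher in each SEM::EGR3 library than in any SEM::mock library, and the BH3-only sum was lower, which for the effectors no longer held once BOK was added.

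The ratio of pro-survival to all pro-apoptotic transcripts (effectors plus BH3-only) was 1.39, 1.37 and 1.37 in SEM::mock and 1.86, 1.93 and 1.82 in SEM::EGR3. The SEM::EGR3 libraries all lay above, with means of 1.38 ± 0.0153 and 1.87 ± 0.0565, 1.36-fold apart. BID alone fell by 84.8 CPM, more than the whole BH3-only difference. PMAIP1 fell as well (95.9 and 64.0 CPM, SEM::mock first), while BBC3 and BCL2L11 gained. The ratio of BH3-only to effector transcripts was 4.27 ± 0.438 in SEM::mock and 2.62 ± 0.239 in SEM::EGR3. These are sums of RNA over genes whose proteins differ in stability and binding, so the ratio does not measure the survival of the cells.

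Within the pro-survival pool, the share of BCL2 was 2.57 ± 0.176% in SEM::mock and 14.6 ± 0.584% in SEM::EGR3. The share of MCL1 was 44.6 ± 1.24% against 24.8 ± 0.500%, and that of BCL2L1 52.6 ± 1.50% against 60.4 ± 0.902%. In SEM::mock the pool was thus nearly all BCL2L1 and MCL1, and in SEM::EGR3 BCL2 joined them with a sizable share. BCL2L1 exceeded BCL2 by a factor of 20.6 ± 1.87 in SEM::mock and of 4.15 ± 0.230 in SEM::EGR3.

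Within the BH3-only pool, BID held 40.4 ± 1.36% in SEM::mock and 15.9 ± 0.683% in SEM::EGR3. BBC3 moved from 11.3 ± 1.12% to 30.6 ± 0.643% and BCL2L11 from 16.4 ± 1.44% to 25.6 ± 0.997%. The leading BH3-only transcript was BID in SEM::mock and BBC3 in SEM::EGR3. PMAIP1 changed least in share, at 32.0 ± 1.53% and 27.9 ± 0.437%. The ratio of BCL2L11 to BCL2, a sensor and the pro-survival protein that binds it, was 3.74 ± 0.169 in SEM::mock and 0.677 ± 0.0298 in SEM::EGR3, so BCL2 transcripts exceeded those of BCL2L11 only in SEM::EGR3.

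**Figure D3:**
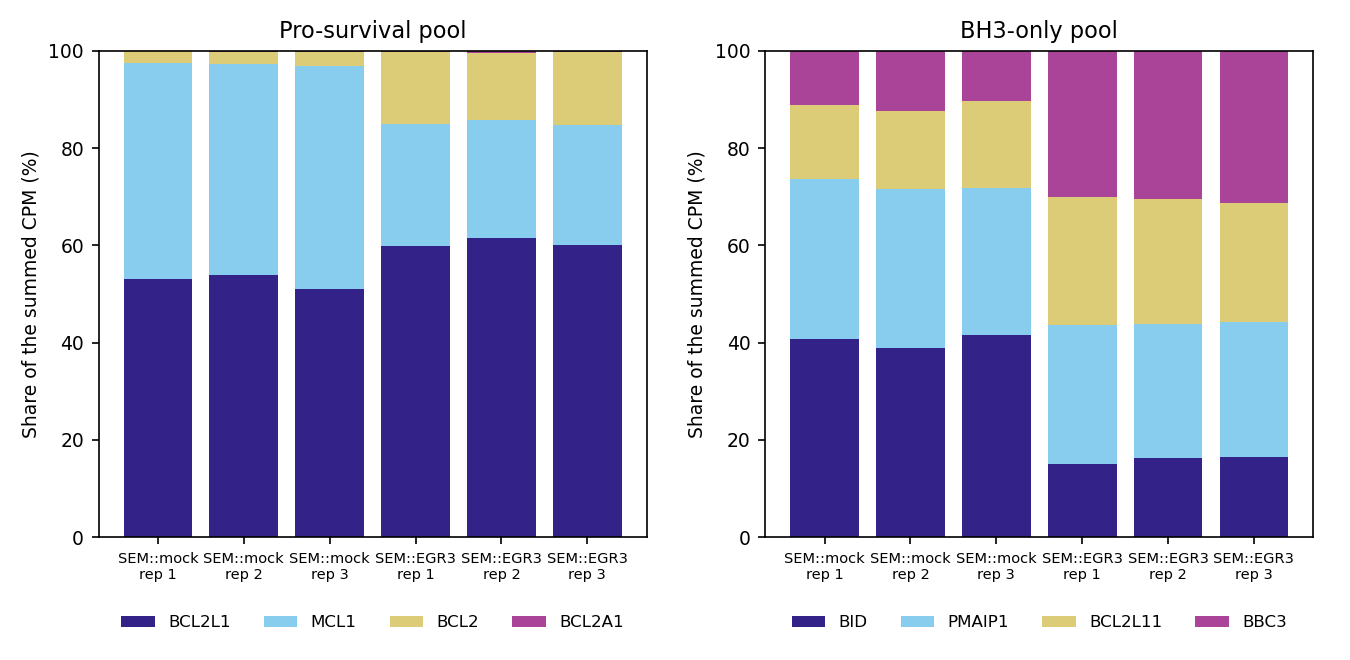
Share of each gene in the summed CPM (%) of the pro-survival pool (left) and the BH3-only pool (right), 1 stacked bar per library. BCL2 takes 2.57% on average in SEM::mock and 14.6% in SEM::EGR3, and BID takes 40.4% and 15.9%; BCL2A1 is too small to see in most bars.

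Other genes of the family extend the picture. BIK, a BH3-only gene whose protein sits on the endoplasmic reticulum, was counted 0, 3 and 0 times in SEM::mock and 355, 220 and 298 times in SEM::EGR3. It was at or near 0 in every SEM::mock library and well above it in every SEM::EGR3 library. The ratio of total counts per scaled library was 152.2 (95% counting interval 51.9 to 739.7, edgeR adjusted p = 8.331e-15). At 28.5 ± 5.12 CPM in SEM::EGR3 it was about as abundant as BMF, a BH3-only gene whose protein is held on the cytoskeleton, which rose from 20.2 to 27.6 CPM (log2 fold change 0.46). BNIP3, a mitochondrial protein of hypoxia and mitophagy, fell from 30.6 ± 5.28 to 14.1 ± 1.91 CPM (log2 fold change -1.14, SE 0.122, adjusted p = 1.038e-08). BCL2L12, the most abundant gene of this list, fell from 189.5 to 116.5 CPM.

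Of the 12 other family genes in the table, 9 were tested, set here beside 36.5% higher and 32.0% lower among all tested genes. Of the 9, 2 were higher (BIK and BMF), 4 were lower (BCL2L12, BCL2L13, BNIP3 and BNIP3L) and 3 were not called. The latter were BAD (32.1 and 36.2 CPM, adjusted p = 0.0707), BCL2L2 (15.1 and 13.3 CPM, adjusted p = 0.1999) and BOK (3.85 and 2.63 CPM, adjusted p = 0.0533). With BCL2L2, BOK, BAD, BIK, BMF and HRK added to the sums, the ratio of pro-survival to pro-apoptotic transcripts was 1.23 ± 0.0232 in SEM::mock and 1.47 ± 0.0325 in SEM::EGR3, so the lines still did not overlap but stood closer together. With these genes the BH3-only sum was 353.2 ± 8.25 against 322.7 ± 15.2 CPM, a smaller difference than among the members, and the effector sum of 74.5 ± 7.75 against 90.5 ± 7.41 CPM overlapped between the lines.

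The caspases act at death receptors and downstream of mitochondria. Of 11 tested caspase and apoptosome genes, 1 was higher, 7 were lower and 3 were not called, beside 36.5% higher and 32.0% lower among all tested genes, with a median log2 fold change of -0.37. CYCS, which encodes cytochrome c and was the most abundant of them, fell from 448.1 ± 19.3 to 265.8 ± 10.0 CPM (log2 fold change -0.75, adjusted p = 4.857e-12). CASP2 was the gene that rose, from 95.4 to 155.9 CPM. The apoptosome scaffold APAF1 (8.14 and 7.07 CPM) was among those not called.

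Among the inhibitors of apoptosis and their antagonists, 8 were tested, with 3 higher and 4 lower, beside 36.5% and 32.0% of all tested genes. BIRC5 (208.5 and 219.9 CPM), the most abundant, was not called, and the median log2 fold change was -0.08. BIRC7, an inhibitor known from melanoma, was at 0 counts throughout SEM::mock and at 132, 60 and 75 counts in SEM::EGR3, at least 15.4-fold higher with the limit set at 3 counts per library, which covers counting error only. XAF1, an antagonist of XIAP, was also at 0 in SEM::mock and at least 6.04-fold higher in SEM::EGR3. BIRC3, a ubiquitin ligase of NF-κB signaling, fell from 6.25 ± 0.976 to 1.63 ± 0.208 CPM (log2 fold change -1.89, SE 0.237, adjusted p = 1.435e-07).

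The death receptor list, which feeds into BID, had 10 tested genes, of which 2 were higher, 5 were lower and 3 were not called. Its median log2 fold change was -0.40. Across every tested gene 68.5% were called, 36.5% upward and 32.0% downward, so being called does not by itself set a gene of this list apart. The TRAIL receptor genes did not move as a group. TNFRSF10A had 18.6, 19.6 and 17.1 CPM in SEM::mock and 3.61, 4.45 and 3.65 CPM in SEM::EGR3 (log2 fold change -2.27, SE 0.152, adjusted p = 1.719e-12), and TNFRSF10B had 38.7, 40.0 and 38.0 CPM and 9.42, 11.0 and 9.62 CPM (log2 fold change -1.98, SE 0.102, adjusted p = 1.01e-14). CFLAR, the inhibitor of caspase-8 at these receptors, fell as well, from 151.8 ± 1.50 to 48.3 ± 1.20 CPM (log2 fold change -1.65, SE 0.0602, adjusted p = 9.478e-18). The decoy receptor genes TNFRSF10C and TNFRSF10D did not pass the filter on low counts. TNFRSF10D was counted 0, 0 and 1 times in SEM::mock and 19, 12 and 25 times in SEM::EGR3 (ratio of total counts 29.3, 95% counting interval 5.05 to 1178), and TNFRSF10C stood at 0.124 and 0.140 CPM. Both TRAIL receptors that carry a death domain, CFLAR and BID were therefore lower in SEM::EGR3, while FAS was not called and TNFRSF10D was counted more often there. FASLG had 1 count over the SEM::mock libraries and a ratio of 47.6 (95% counting interval 8.33 to 1901).

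Of 8 mitochondrial release and channel genes, 1 was higher (OPA1, a fusion protein that shapes cristae), 5 were lower and 2 were not called, with a median of -0.34. VDAC3, the most abundant, fell from 234.8 to 173.5 CPM. Of 19 regulators of MCL1 and of BH3 proteins, 7 were higher, 4 were lower and 8 were not called, with a median of 0.07. HUWE1, a ubiquitin ligase of MCL1, rose from 95.2 to 151.9 CPM, and BAG3, a co-chaperone, fell from 24.6 ± 1.15 to 11.2 ± 0.589 CPM (log2 fold change -1.12, SE 0.11, adjusted p = 2.339e-09). YWHAE, a 14-3-3 protein and the most abundant of that list, moved from 686.7 to 628 CPM (log2 fold change -0.13, adjusted p = 0.0259). Over all 6 lists, 65 genes were tested, of which 16 were higher, 29 were lower and 20 were not called, with a median of -0.19 against 0.03 over all tested genes. Calls in either direction were about as common in these lists as over all tested genes (68.5%). Of all tested genes, 36.5% were higher and 32.0% lower, whereas in these lists lower calls outnumbered higher ones.

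**Figure D4:**
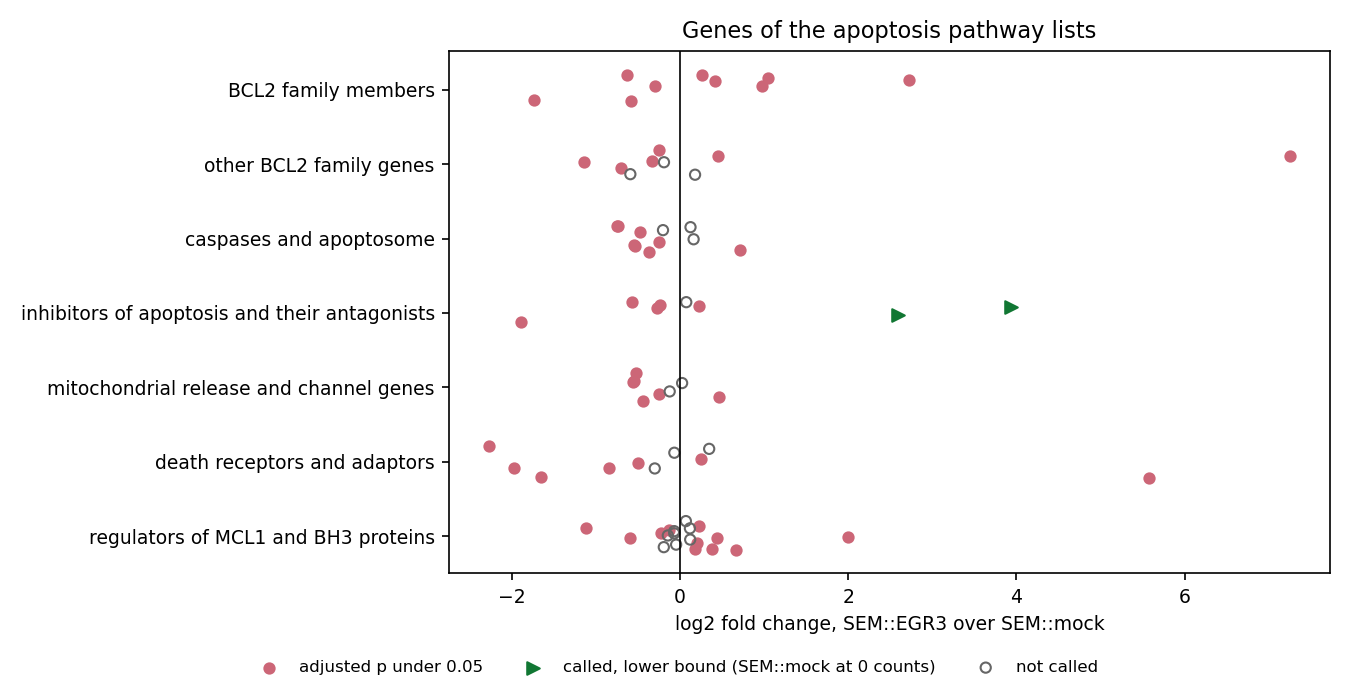
Log2 fold change of SEM::EGR3 over SEM::mock for each tested gene of the members and the 6 pathway lists; filled points were called at an adjusted p under 0.05, open points were not, and triangles are lower bounds for genes at 0 counts in SEM::mock. Each caspase and mitochondrial gene stays within 1 of 0, while BIK, at a ratio of 152.2 from total counts, and FASLG, at 47.6, lie far to the right.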

How the data were processed

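Whole-number counts per gene and library were deposited by the authors as 1 table of 6 MACE-Seq libraries, without normalization. The submitters' processing notes name bcl2fastq, Bowtie2, HTSeq and GRCh38, without versions. The strand setting and the use of molecular identifiers in counting are not given in the sources used here. The headings spell the transgene ERG3 and were read as EGR3, as the sample titles name no other line. A further 12 per-sample columns of scaled values and the authors' own DESeq2 fold changes and p-values were not used.

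The test was that of edgeR 4.0.16 in R 4.3.3 (filterByExpr, TMM, glmQLFit and glmQLFTest, no covariate), and p-values were adjusted by Benjamini-Hochberg over 15465 tested genes. The code was first tested on simulated data. The study's methods state DESeq2, which was an alternative here (DESeq2 1.42.0). Positions come from GENCODE release 29 (GRCh38) and promoter windows from RefSeq (GRCh38.p14). Counting intervals are exact Poisson intervals. Replicates differed by more than counting noise (chi-square per degree of freedom 1.64 to 3.34), and no 2 libraries were merged.

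Named genes are the 10 members and, of each pathway list, those with a log2 fold change of 1 or more in either direction (at most 5 per direction) and the most abundant gene. Some genes that this rule would name are not reported here. BMF, BAD, BCL2L2, BOK, CASP2, APAF1, FAS, TNFRSF10C, TNFRSF10D, OPA1, HUWE1 and the genes named as overlapping were chosen after their values were seen. Members and lists were chosen with earlier results of these data known. The alternatives were DESeq2, other normalization factors or none, other filters, a replicate block, fits without 1 library each, a minimum fold change and wider family sums.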

Additional observations from a re-analysis of the deposited data

How the results depend on the processing

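The calls of the 9 tested members kept their direction and their side of the threshold under DESeq2 in place of edgeR, its size factors, upper-quartile factors, no normalization factors, no filter, a minimum of 10 counts per library and the replicate block. Without normalization factors the median of all tested genes was 0.11 on the log2 scale, against 0.03. Requiring a change of at least 1 on the log2 scale left 2 members higher and 1 lower, and 5 pathway genes higher and 6 lower of 65 tested. At this threshold 16.7% of all tested genes were higher and 8.50% lower. Leaving out 1 library at a time, the log2 fold change of BCL2L11 ranged from 0.18 to 0.32 and was not called without SEM::mock replicate 1, and that of BAX ranged from -0.38 to -0.19 and was not called without SEM::EGR3 replicate 1; no other member lost its call. With the other family genes of the same role added, SEM::mock first, the ratio of pro-survival to pro-apoptotic transcripts was 1.23 and 1.47, that of BH3-only to effector transcripts 4.78 and 3.58, and the pro-survival shares were 51.1% and 59.1% for BCL2L1 and 43.3% and 24.2% for MCL1.

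Replicate numbers did not pair the libraries: deviations of same-numbered libraries correlated at -0.138, -0.0934 and -0.0431. With the replicate block, 5 members were higher and 4 lower, as without it, and 15 pathway genes were higher and 28 lower. In that fit 34.8% of all tested genes were higher and 30.3% lower. Depth limited BCL2A1, HRK and other genes of few counts, more so in SEM::mock.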

Other observations

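The genes around the members were described by the tested genes within 1000 kb of each, a distance chosen after the data were seen. Over all tested genes, 36.5% were higher and 32.0% lower. Around BCL2, 7 of 9 neighbours were higher in SEM::EGR3 and 1 was lower, with a median log2 fold change of 0.79. Around BBC3, 17 of 34 neighbours were higher and 8 were lower, with a median of 0.42. Around BID, 7 of 16 neighbours were higher and 7 were lower, with a median of 0.11, beside the fall of BID itself. Around MCL1, 17 of 60 neighbours were higher and 30 were lower, with a median of -0.21. The medians around the other 6 members lay between -0.06 and 0.02.

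DIABLO, the mitochondrial antagonist of XIAP, was counted 1, 0 and 1 times in SEM::mock and 2, 3 and 1 times in SEM::EGR3, and was not tested. It was chosen after its values were seen. Whether its reads were lost to an overlapping gene was not tested, so the low counts do not show that the transcript was absent.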
